A study of Mus musculus with 4 samples.

Results

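The caudal homeobox genes Cdx1, Cdx2 and Cdx4 were taken by name, 3 genes of 27998 in the deposited table, and all 3 were measured. They encode homeodomain transcription factors related to the caudal gene of the fly. In the gastrulating embryo they are switched on in the primitive streak and tail bud downstream of WNT, FGF and retinoic acid. Their proteins bind in the Hox clusters and help to activate the trunk Hox genes, and embryos that lack several of them stop elongating the body axis. Cdx2 is also a regulator of trophectoderm and of intestinal epithelium.

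The cells were mouse neuromesodermal progenitors (NMPs), which can give both spinal cord and paraxial mesoderm, or their precursors, made in culture. ES-NMP came from embryonic stem cells kept 2 days in N2B27, a serum-free medium, and then 24 h in N2B27 with 3 µM of CHIR99021, a GSK3 inhibitor that activates WNT signalling. Epi-CE came from epiblast stem cells kept in FGF2 at 12 ng/ml and activin A at 25 ng/ml, which were moved to FGF2 at 20 ng/ml without activin and given 3 µM of CHIR99021 on day 3. A Bra:GFP line, which reports T (Brachyury), was grown in the same way and sorted for GFP at 72 h to give Epi-CE-T. Epi-NMP was Epi-CE replated for 2 days in the same FGF2 and CHIR99021. The labels give strain E14Tg2a for all 4 populations. Each population is 1 library, so there is no replicate check, no test across samples was possible and no p-value is given. Library and condition cannot be told apart, and every 95% interval below covers counting error only.

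Levels are summed counts of unique molecular identifiers (UMIs, each standing for 1 captured RNA molecule) per 1000000 UMIs of the library (CPM). Only barcodes marked TRUE in the deposited cell table were used: 3116 in ES-NMP, 2386 in Epi-CE, 2109 in Epi-CE-T and 1111 in Epi-NMP, with 71563029, 58663735, 44990488 and 22261452 UMIs. Libraries shared 42 TRUE barcode sequences. One gene went against the strain label: Hprt, which E14Tg2a cells are known to have lost by deletion, was at 0.801 CPM in Epi-CE and 0.943 CPM in Epi-NMP but at 204 CPM in ES-NMP and 138 CPM in Epi-CE-T. The part of a difference between cell lines in the results was not tested, and each result of the library labelled ES-NMP or Epi-CE-T against an Epi-CE-derived one carries this limit. All 10 caudal epiblast and NMP markers had UMIs in each library, which does not by itself place a library in that state. Markers at 1 CPM or more numbered 10 in ES-NMP, 9 in Epi-CE, 10 in Epi-NMP and 6 in Epi-CE-T. At least 3 of the 10 markers were seen in 41.8% of cells in ES-NMP, 60.0% in Epi-CE, 33.8% in Epi-NMP but 1.85% in Epi-CE-T.

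On GRCm38 (mm10), the protein-coding Cdx2 gene lies on chromosome 5 from 147300805 to 147307270 (minus strand), and the protein-coding Cdx4 gene on chromosome X from 103321398 to 103330592 (plus strand). Their upstream sequences are shown because the 2 genes were found in the same cells of ES-NMP. The letters run 5′ to 3′ on the gene's strand, from RefSeq promoters on GRCm38.p6, at chr5:147307271-147307499 for Cdx2 and chrX:103321148-103321397 for Cdx4. Bases that GENCODE places inside the Cdx2 gene were left out, so 229 bases are shown for Cdx2 and 250 for Cdx4. Capitals mark the octamer ATGCAAAT, the word that POU factors such as Pou5f1 are known to bind.
Cdx2: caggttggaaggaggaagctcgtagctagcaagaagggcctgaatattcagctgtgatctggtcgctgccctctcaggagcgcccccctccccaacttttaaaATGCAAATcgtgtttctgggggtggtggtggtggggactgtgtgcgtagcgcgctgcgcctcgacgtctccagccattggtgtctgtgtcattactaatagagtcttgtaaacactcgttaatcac
Cdx4: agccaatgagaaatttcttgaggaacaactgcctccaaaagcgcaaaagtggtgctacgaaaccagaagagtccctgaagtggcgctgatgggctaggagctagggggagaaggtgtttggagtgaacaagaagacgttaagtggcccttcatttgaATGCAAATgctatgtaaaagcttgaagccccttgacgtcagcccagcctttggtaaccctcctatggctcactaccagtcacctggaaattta
The octamer was looked for after the sequences had been seen. Read on both strands, it occurs in 1.60% of the 250 upstream bases of 32851 mouse promoters, and its first base is at -147 in Cdx2 and -93 in Cdx4, counted from RefSeq's start, which for Cdx2 lies beyond the last base shown. A TCF/LEF word (CTTTGNN with only A or T for each N) and a CDX word (TTTATNG) were in neither gene's 250 upstream bases, against 14.8% and 9.81% of all promoters. A match describes letters only. The Cdx1 promoter was not in the table used.

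Because the 3 genes are paralogues, a read from the conserved homeobox could be assigned to the wrong one. The most alike coding stretch of Cdx2 and Cdx4 is shown, with capitals at the 30 of 180 bases that differ.
Cdx2 coding bases 541 to 720: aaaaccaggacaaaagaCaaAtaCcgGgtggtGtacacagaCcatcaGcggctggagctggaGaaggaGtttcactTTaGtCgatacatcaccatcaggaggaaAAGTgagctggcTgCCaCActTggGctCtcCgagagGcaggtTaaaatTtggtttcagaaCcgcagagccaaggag
Cdx4 coding bases 499 to 678: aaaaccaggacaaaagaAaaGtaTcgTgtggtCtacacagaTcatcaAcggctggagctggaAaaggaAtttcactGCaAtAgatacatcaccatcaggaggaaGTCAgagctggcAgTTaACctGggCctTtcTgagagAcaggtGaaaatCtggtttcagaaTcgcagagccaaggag
These stretches are 83.3% identical, and the longest run of bases that the 2 transcripts share is 22. How the authors' counting treated reads that match several genes is not given in the sources used here.

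Cdx2, the member best known for trunk Hox activation, was detected in all 4 libraries. Its level was 336 CPM in Epi-NMP (328 to 344), 245 CPM in ES-NMP (241 to 248), 122 CPM in Epi-CE (119 to 125) and 4.67 CPM in Epi-CE-T (4.06 to 5.34). Epi-NMP was thus highest and Epi-CE-T lowest, and no neighbours in that order had overlapping intervals. Cdx1, a streak gene that acts in vertebral patterning, was at 77.6 CPM in ES-NMP (75.5 to 79.6), 42.1 CPM in Epi-CE (40.5 to 43.8), 11.0 CPM in Epi-NMP (9.63 to 12.4) and 1.24 CPM in Epi-CE-T (0.940 to 1.62). Its highest library was ES-NMP, and Epi-NMP came below Epi-CE. Cdx4, a further WNT-responsive member of streak and tail bud, was at 3.97 CPM in ES-NMP (3.52 to 4.46, 284 UMIs). It had 0 UMIs in Epi-CE, where the floor of 3 counts is 0.0511 CPM, 0 UMIs in Epi-CE-T, with a floor of 0.0667 CPM, and 1 UMI in Epi-NMP (0.0449 CPM, 0.00114 to 0.250). Cdx4 was therefore seen as more than a single molecule in ES-NMP alone of these 4 libraries.

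**Figure D1:**
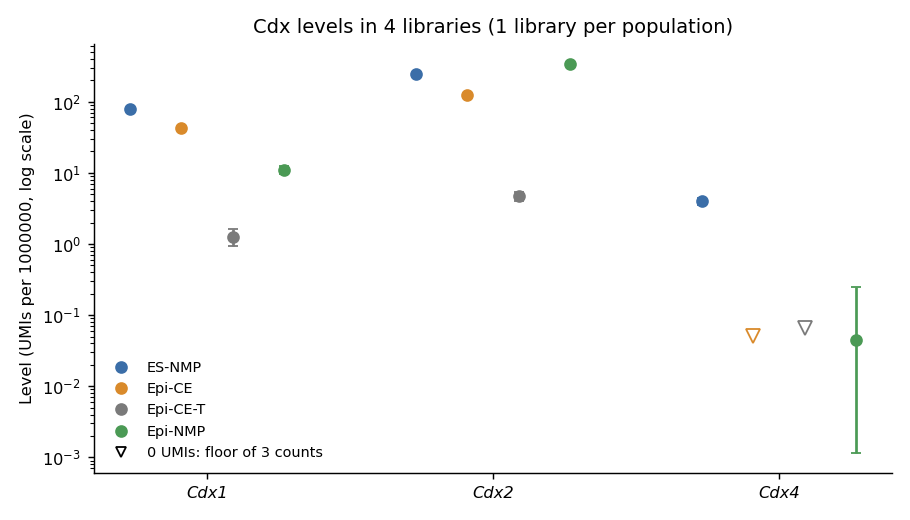
Level of each Cdx gene in UMIs per 1000000 (log axis) in the 4 libraries; points are 1 library each, bars are exact Poisson 95% intervals, and open triangles are the floor of 3 counts where no UMI was found. Cdx2 is highest in Epi-NMP (336) and Cdx1 in ES-NMP (77.6), while Cdx4 stands clear of the floor in ES-NMP (3.97).

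The epiblast-derived precursor Epi-CE held less of all 3 genes than ES-NMP. The difference was 1.84-fold for Cdx1 (1.76 to 1.93), 2.01-fold for Cdx2 (1.95 to 2.06) and at least 77.6-fold for Cdx4. Among 13553 genes whose UMIs in the pair of libraries summed to 50 or more, 16.2% were at least 1.5-fold lower in Epi-CE and 21.1% at least 1.5-fold higher. ES-NMP also held a naive pluripotent component: 31.1% of its cells had at least 3 of 10 naive markers (summed level 1764 CPM against 20.9 to 63.5 CPM elsewhere), against at most 1 cell in each other library. Without these cells the log2 ratios moved from -0.88 to -1.22 for Cdx1 and from -1.0 to -1.47 for Cdx2.

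Cdx1 and Cdx2 differed in opposite directions between Epi-CE and Epi-NMP, the library of Epi-CE replated for 2 days in FGF2 and CHIR99021. In Epi-NMP, Cdx2 was 2.75-fold higher than in Epi-CE (2.67 to 2.85), whereas Cdx1 was 3.84-fold lower (3.37 to 4.40). The background was 14.9% of 12628 genes at least 1.5-fold higher and 22.7% at least 1.5-fold lower. These 2 libraries share the low Hprt level. Cdx4 did not appear with the higher Cdx2, since 1 UMI among 22261452 was found.

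Set against ES-NMP, the Epi-NMP library had 1.37-fold more Cdx2 (1.34 to 1.41) and 7.08-fold less Cdx1 (6.22 to 8.08). Cdx4 was 88.3-fold lower on 1 count, with an interval of 15.7 to 3502. Genes at least 1.5-fold higher made up 16.0% of 12949, and genes at least 1.5-fold lower 18.4%, so the Cdx2 difference is under the size used for that background. Its direction turned on the naive cells of ES-NMP: without them the log2 ratio of Cdx2 was -0.0078 in place of 0.46, while that of Cdx1 was -3.17 in place of -2.82.

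The sorted Epi-CE-T library was nearly empty of the family although it was sorted for the T reporter. Its Cdx1 level lay 33.8-fold below that of Epi-CE (26.0 to 44.9) and its Cdx2 level 26.1-fold below (22.8 to 30.1), with 13.1% of 13119 genes at least 1.5-fold lower and 18.1% at least 1.5-fold higher. T itself was at 382 CPM in Epi-CE-T and 430.5 CPM in Epi-CE. Nkx1-2, a homeobox gene of the caudal epiblast, was at 12.6 CPM against 182 CPM. At least 3 node and notochord markers were found in 17.1% of Epi-CE-T cells and 3.35% of Epi-CE cells, with summed marker levels of 240 and 83.4 CPM and every one of the 8 markers detected in both. The part of these cells in the Cdx difference was not tested, and the sort, the reporter line and the library cannot be told apart.

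To compare cells at 1 depth, each was thinned at random to 8000 UMIs, which left out no TRUE barcode. Cdx2 was then detected in 52.1% of ES-NMP cells (50.4 to 53.9), 39.9% of Epi-CE cells (38.0 to 41.9), 1.09% of Epi-CE-T cells (0.693 to 1.63) and 66.3% of Epi-NMP cells (63.5 to 69.1). Unthinned, these shares were 63.4%, 54.6%, 2.42% and 74.2%. Among cells with Cdx2, the mean was 3.73 UMIs in ES-NMP, 2.60 in Epi-CE and 3.81 in Epi-NMP. Fewer positive cells and fewer molecules per positive cell thus both accompanied the lower total of Epi-CE.

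Cdx1 was detected in 35.3% of ES-NMP cells (33.7 to 37.0), 21.0% of Epi-CE cells (19.3 to 22.6), 0.616% of Epi-CE-T cells (0.329 to 1.05) and 6.03% of Epi-NMP cells (4.70 to 7.60). The unthinned shares were 56.2%, 38.8%, 1.56% and 12.2%. Cdx4 was detected in 67 ES-NMP cells, 2.15% (1.67 to 2.72), and in 147 cells (4.72%) before thinning. In Epi-CE it was in 0 of 2386 cells, which allows a share of up to 0.126% (3 counts of the total, a limit on cells with a UMI and not on cells that express the gene), and in Epi-CE-T in 0 of 2109, which allows up to 0.142%. Epi-NMP had 1 such cell before thinning and 0 of 1111 after it, which allows up to 0.270%.

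RNA free in the droplets can put UMIs into cells that do not make them, so shares were set beside those in marker classes. Whether these classes make Cdx RNA was not tested. The somite-list cells of Epi-NMP held trunk Hox RNA, at a mean of 1.11 UMIs of paralogue groups 5 to 9. The 969 naive-list cells of ES-NMP, with a median of 23278 UMIs, held Cdx2 in 19.3% (16.9 to 21.9) and Cdx1 in 18.0% (15.6 to 20.5). The other 2147 cells, with a median of 21572 UMIs, held them in 67.0% and 43.2%. The 360 node-list cells of Epi-CE-T held Cdx2 and Cdx1 in 0, which allows up to 0.833%. In Epi-CE the 80 node-list cells, with a median of 18233 UMIs, held Cdx2 in 35.0% (24.7 to 46.5) and Cdx1 in 8.75% (3.59 to 17.2), and the interval for Cdx2 includes the 39.9% of all its cells. In Epi-NMP the 44 cells with at least 3 somite markers, with a median of 21054.5 UMIs, held Cdx2 in 11.4% (3.79 to 24.6) and Cdx1 in 13.6% (5.17 to 27.4). Cdx2 over all Epi-NMP cells was thus above that class, with intervals apart, but it was not clear of the node-list cells given below. Cdx1 was not above the somite-list class. In the same library Cdx1 was in 0 of 30 node-list cells, which allows up to 10.0%, and in 0 of the 49 cells with Shh, a notochord signal, which allows up to 6.12%. The classes thus give no single background for Cdx1 in Epi-NMP, and its 6.03% lies under both limits. Cdx2 was in 15 of those 30 node-list cells (31.3% to 68.7%), an interval that includes the 66.3% of all Epi-NMP cells. It was in 46.9% of the 49 cells with Shh (32.5 to 61.7), an interval below that of all cells. The classes thus give no single background for Cdx2 in Epi-NMP either.

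Cdx1 and Cdx2 were found together more often than the product of their shares in ES-NMP and Epi-CE. In ES-NMP 820 cells held both, 1.43 times the product of the 2 shares (574 cells), and Cdx2 was in 74.5% of cells with Cdx1 (71.8 to 77.0) against 40.0% of cells without it (37.8 to 42.1). In Epi-CE 312 cells held both, 1.56 times the product, and the shares were 62.4% (58.0 to 66.7) and 34.0% (31.8 to 36.2). In Epi-NMP 50 cells held both, 1.12 times the product, and Cdx2 was in 74.6% of cells with Cdx1 (62.5 to 84.5) and 65.8% of those without (62.8 to 68.7). The intervals overlapped in Epi-NMP and were apart in the 2 others.

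Cdx4 lay almost wholly inside the Cdx2-positive cells. Of the 67 ES-NMP cells with Cdx4, 61 held Cdx2, or 91.0% (81.5 to 96.6), and 38 held Cdx1, or 56.7% (44.0 to 68.8). Cdx4 was in 3.75% of cells with Cdx2 (2.88 to 4.80) and 0.402% of cells without it (0.148 to 0.874). All 3 genes were seen in 36 ES-NMP cells (1.16%).

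**Figure D2:**
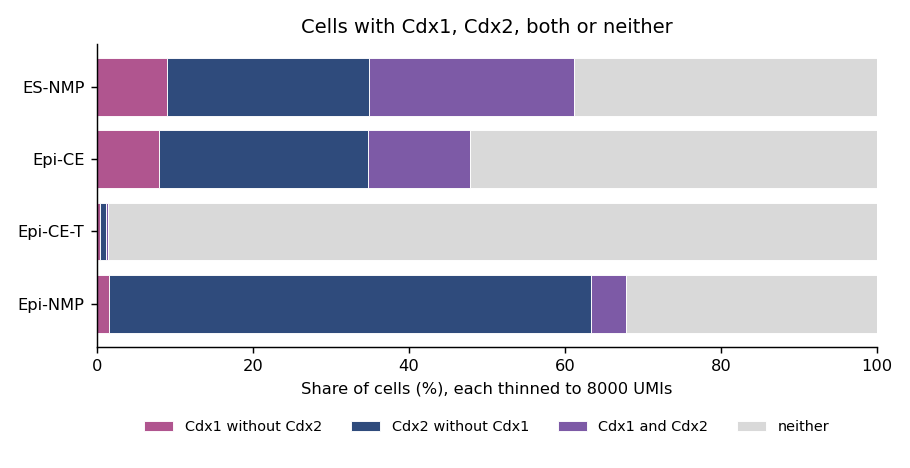
Share of cells (%) of each library, thinned to 8000 UMIs, with Cdx1 without Cdx2, Cdx2 without Cdx1, both, or neither. Cells with both make up 26.3% in ES-NMP, 13.1% in Epi-CE, 0.284% in Epi-CE-T and 4.50% in Epi-NMP, where 61.8% hold Cdx2 without Cdx1.

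The relation to Hox genes was read from 39 genes. They encode the homeodomain factors that give position along the body axis. Paralogue groups 1 to 4 mark hindbrain and neck levels, groups 5 to 9 the trunk and groups 10 to 13 lumbar to tail levels. Their summed level was 393 CPM in ES-NMP, 93.4 CPM in Epi-CE, 33.4 CPM in Epi-CE-T and 942 CPM in Epi-NMP. Groups 5 to 9 alone were at 214, 10.7, 8.25 and 613 CPM. The order of the libraries by total Hox level was that of Cdx2, over 4 libraries only.

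Cells with Cdx2 held more Hox molecules than cells without it within each of 3 libraries. The mean per thinned cell was 5.53 against 0.703 Hox UMIs in ES-NMP, a ratio of 7.87 (7.38 to 8.4). It was 9.79 against 2.58 in Epi-NMP, a ratio of 3.79 (3.55 to 4.06), and 1.08 against 0.645 in Epi-CE, a ratio of 1.68 (1.54 to 1.84). The trunk groups 5 to 9 stood further apart than groups 1 to 4. For groups 5 to 9 the ratio was 14.2 in ES-NMP (12.7 to 15.9), 6.68 in Epi-NMP (6.01 to 7.45) and 4.35 in Epi-CE (3.25 to 5.87), and for groups 1 to 4 it was 4.92, 1.76 and 1.49. Groups 10 to 13 had a ratio of 9.21 in Epi-NMP (5.81 to 15.5) and 4.13 in ES-NMP (2.46 to 7.31). In Epi-CE it was 0.940 (0.242 to 3.26), on 5 UMIs with Cdx2 and 8 without.

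Naive-list cells held 0.207 UMIs of groups 5 to 9 on average, against 2.47 in the other ES-NMP cells. Without them the log2 ratio of groups 5 to 9 was 3.10 in place of 3.83. Among ES-NMP cells with a T UMI it was 4.24. Thinning to 4000 UMIs gave 2.73 in ES-NMP, and 1.73 in place of 2.74 in Epi-NMP. A second random draw at 8000 UMIs gave 1.51 in place of 2.12 in Epi-CE, where 64 UMIs of groups 5 to 9 were found in all cells without Cdx2.

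The trunk Hox count was higher at each step of the Cdx2 count. In ES-NMP the mean of groups 5 to 9 was 0.224 UMIs in cells with no Cdx2 UMI, 1.08 in cells with 1, 2.66 in cells with 2 to 3 and 4.61 in cells with 4 or more. In Epi-NMP these means were 0.989, 4.61, 6.13 and 7.62. In Epi-CE they were 0.0447, 0.0947, 0.184 and 0.367. Spearman's rho between Cdx2 and total Hox UMIs was 0.688 over 3116 ES-NMP cells, 0.227 over 2386 Epi-CE cells and 0.626 over 1111 Epi-NMP cells. The cells of a library share culture, capture and sequencing, and all were thinned to 1 depth.

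Cells with the same Cdx2 count did not hold the same trunk Hox count in different libraries. Among cells with 4 or more Cdx2 UMIs, ES-NMP held 12.6-fold more UMIs of groups 5 to 9 than Epi-CE (10.1 to 15.8), and Epi-NMP held 20.8-fold more (16.7 to 26.1). At least 1 such UMI was found in 82.8% of these cells in ES-NMP, 21.4% in Epi-CE and 98.9% in Epi-NMP. For groups 1 to 4 the difference was smaller, 2.42-fold (2.13 to 2.76) and 2.35-fold (2.05 to 2.69). Even without a Cdx2 UMI, ES-NMP cells held 5.02-fold more of groups 5 to 9 than Epi-CE cells (3.83 to 6.66), and Epi-NMP cells 22.2-fold more (17.0 to 29.4). ES-NMP and Epi-CE also differ in Hprt, whose part in this was not tested.

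**Figure D3:**
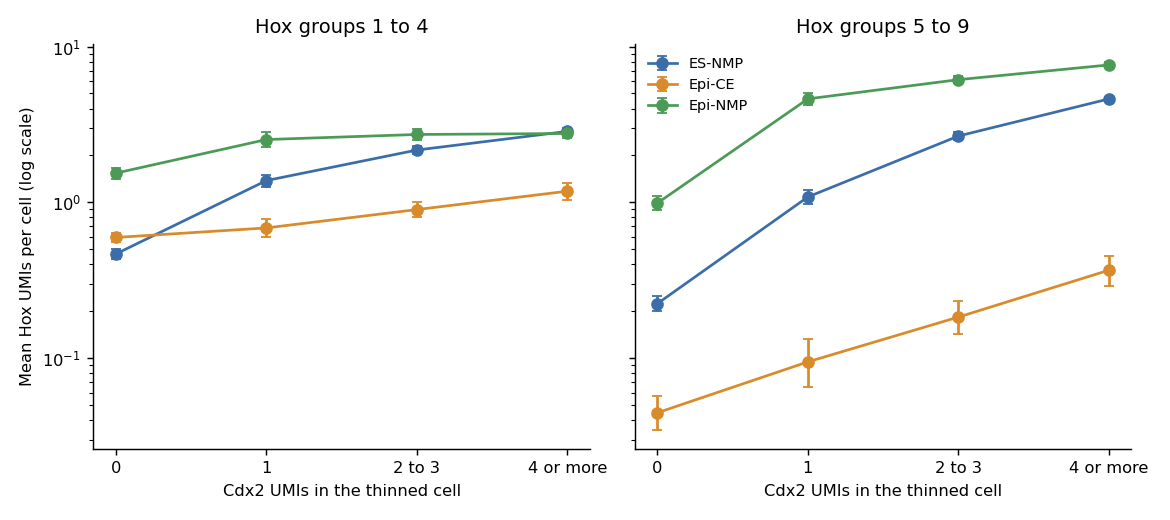
Mean Hox UMIs per cell (log axis), for groups 1 to 4 and groups 5 to 9, in cells with 0, 1, 2 to 3 and 4 or more Cdx2 UMIs after thinning to 8000; bars are exact Poisson 95% intervals. In the highest bin the mean for groups 5 to 9 is 4.61 in ES-NMP, 0.367 in Epi-CE and 7.62 in Epi-NMP.

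Single Hox genes were compared where at least 50 UMIs were found. In ES-NMP 23 of 39 were measured, and 23 were at least 1.5-fold higher in cells with Cdx2, against 7.19% of 10731 genes (9.09% were lower). Their median log2 ratio was 3.32, against 0.03 over all genes. The largest ratios were of Hoxb5 at 47.3 (12.8 to 395) on 2 UMIs in cells without Cdx2, and Hoxc8 at 34.5 (20.7 to 62.1). Then came Hoxc9 at 27.4, Hoxc5 at 23.4 (6.15 to 198, also on 2 UMIs), Hoxc6 at 22.9, Hoxb8 at 17.6, Hoxb6 at 16.9 and Hoxa9 at 16.4. The smallest were of Hoxa2 at 2.11 (1.53 to 2.93) and Hoxd1 at 2.41. The 8 largest ratios were thus all of groups 5 to 9.

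In Epi-NMP 25 Hox genes were measured, of which 21 were at least 1.5-fold higher with Cdx2 (5.36% of 8579 genes) and 1 was lower (7.25%). Hoxc10 led at 16.8 (7.08 to 52.6), with 0.225 against 0.0134 UMIs per cell. It was followed by Hoxc9 at 11.8 (7.63 to 19.2), Hoxc6 at 11.0, Hoxb9 at 10.9, Hoxa10 at 9.64, Hoxc8 at 7.82, Hoxb8 at 7.73 and Hoxb7 at 6.84. Low ratios were those of Hoxb1 at 0.655 (0.454 to 0.949) and Hoxa5 at 1.05 (0.711 to 1.59). Hoxb1 was the lower gene, an anterior gene that the streak expresses early.

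In Epi-CE 7 Hox genes were measured and 5 were at least 1.5-fold higher with Cdx2, against 2.20% of 10389 genes (3.53% lower, a class with 0 Hox genes). Hoxa5 was at 6.77 (3.58 to 13.9), Hoxa3 at 3.76 (2.06 to 7.19), Hoxa7 at 2.74 and Hoxb4 at 2.09. Hoxb2 at 0.967 (0.780 to 1.20) and Hoxb1 at 0.851 (0.706 to 1.02) had intervals that include 1. Hoxb1 and Hoxb2 had the ratios 4.98 and 4.82 in ES-NMP.

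**Figure D4:**
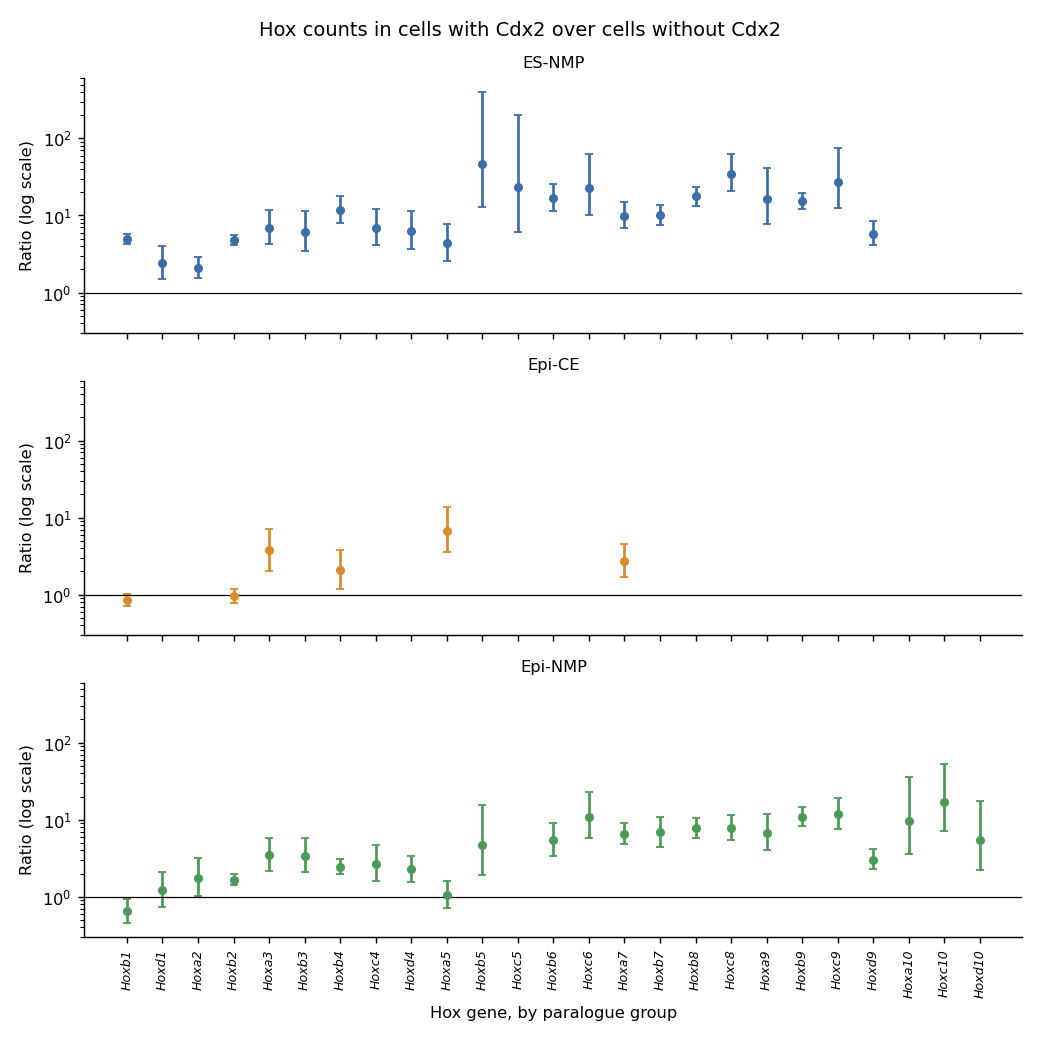
Ratio of mean UMIs per thinned cell (log axis), cells with over cells without Cdx2, for Hox genes with at least 50 UMIs, ordered by paralogue group; bars are exact 95% counting intervals and the line marks 1. In ES-NMP every plotted gene lies above 1.5, in Epi-CE Hoxb1 (0.851) and Hoxb2 (0.967) lie just below 1, and in Epi-NMP Hoxb1 is lowest of those plotted at 0.655.

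Read the other way, Cdx2 was most often found in cells whose most posterior Hox gene was of the trunk or beyond. In ES-NMP, Cdx2 was in 21.7% of cells with no Hox UMI, 55.9% of cells that reached groups 1 to 4, 85.3% of those that reached 5 to 9 and 79.5% of those that reached 10 to 13. In Epi-NMP these shares were 11.3%, 17.5%, 80.4% and 93.4%. In Epi-CE they were 31.6%, 48.1% and 69.1% for the first 3 classes, and 4 of 12 cells for the last. Of the 953 Epi-CE cells with a Cdx2 UMI, 444 had no Hox UMI. A Cdx2 UMI there does not mark a Cdx2-expressing cell for certain. In Epi-CE 35.0% of node-list cells held one, and 17.5% of the 63 cells with Shh (9.05 to 29.1). Whether those cells make Cdx2 was not tested.

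Cells with Cdx1 but no Cdx2 held less trunk Hox RNA than cells with Cdx2. Over all cells, the ratio of total Hox UMIs by Cdx1 status was 1.05 in Epi-NMP (0.958 to 1.15), 1.68 in Epi-CE (1.52 to 1.85) and 2.05 in ES-NMP (1.97 to 2.13). The Epi-NMP value depended on the random draw: its log2 ratio was 0.07 here, 0.33 with a second draw and 0.33 without thinning. In ES-NMP the log2 ratio of 1.03 was 0.60 without naive-list cells and 0.50 among cells with T. Among ES-NMP cells, those with Cdx1 alone of the 3 genes held 0.376 UMIs of groups 5 to 9 (0.308 to 0.456), and cells with Cdx2 alone held 2.87 (2.76 to 2.99). Cells with Cdx1 and Cdx2 held 3.27 (3.15 to 3.40), and cells with none held 0.189 (0.165 to 0.215). In Epi-CE the 4 means were 0.0638, 0.172, 0.240 and 0.0418. In Epi-NMP they were 1.18 (0.719 to 1.82, over 17 cells), 6.60, 6.74 and 0.980. Adding Cdx1 to Cdx2 thus gave overlapping intervals there (6.41 to 6.79 and 6.04 to 7.50).

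By gene, 20 of 23 measured Hox genes were at least 1.5-fold higher with Cdx1 in ES-NMP (3.53% of all genes, 6.17% lower) and 5 of 7 in Epi-CE (2.01%, 4.17% lower). In Epi-NMP 2 of 25 were higher and 6 lower (6.76% and 13.8%), in 67 cells with Cdx1. In ES-NMP Hoxd9 had the ratio 3.51 (2.72 to 4.54) for Cdx1 and Hoxb9 1.64 (1.47 to 1.82), whereas for Cdx2 they had 5.77 and 15.4. This pair of genes was singled out after the values had been seen.

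The 67 ES-NMP cells with Cdx4 held 8.45 Hox UMIs each, against 3.11 in the other cells, a ratio of 2.72 (2.49 to 2.96). Of 23 measured Hox genes, 19 were at least 1.5-fold higher with Cdx4, against 14.6% of all genes (14.7% lower). Within Cdx2 cells without Cdx1, those with Cdx4 (25 cells) held 6.88 UMIs of groups 5 to 9 (5.89 to 7.99), against 2.87 (2.76 to 2.99) in those without it. With Cdx1 and Cdx2, the 36 cells with Cdx4 held 5.53 (4.79 to 6.35) against 3.27 (3.15 to 3.40). The number of Cdx2 UMIs was not matched in either comparison, and trunk Hox counts were higher with more of them, as given above. Hoxa9 had the largest Cdx4 ratio among the measured Hox genes, 5.40 (2.86 to 9.42), on 14 UMIs in cells with Cdx4, and was singled out after the values had been seen.

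The 4 states given by T, a factor of streak and mesoderm, and Sox2, which acts in pluripotency and in the neural lineage, placed Cdx2 differently in the libraries. In ES-NMP, Cdx2 was in 71.5% of cells with T without Sox2 (68.3 to 74.5), 71.2% with both (64.4 to 77.4), 30.3% with Sox2 without T (27.1 to 33.5) and 50.6% with neither (47.8 to 53.4). In Epi-CE these shares were 39.4%, 64.0% (58.8 to 69.0), 26.8% and 24.2%. In Epi-NMP they were 53.3% (47.8 to 58.7), 87.6% (82.7 to 91.4), 87.4% (82.6 to 91.2) and 44.8% (38.9 to 50.9). Sox2 is also a gene of naive pluripotent cells, which ES-NMP holds. In Epi-CE and Epi-NMP the T cells that also held Sox2, the usual definition of an NMP, had Cdx2 more often than T cells without it, with intervals apart.

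In ES-NMP, Cdx1 was most frequent in cells with T. It was in 60.5% of cells with T without Sox2 (57.1 to 63.8), 51.0% with both (43.8 to 58.2) and 18.8% with Sox2 without T (16.2 to 21.6). In Epi-CE the shares were 22.3%, 29.5% and 14.3%. In Epi-NMP they lay between 4.73% and 7.91% in all 4 states, with overlapping intervals.

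**Figure D5:**
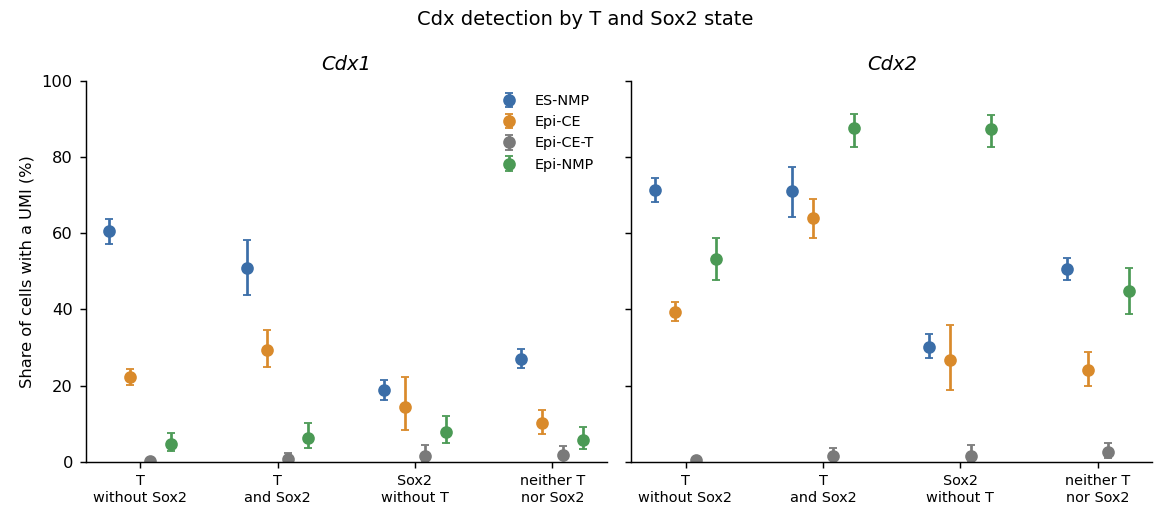
Share of cells (%) with a Cdx1 or Cdx2 UMI after thinning, by detection of T and Sox2, in the 4 libraries; bars are exact binomial 95% intervals. Cdx2 reaches 87.6% in T and Sox2 cells of Epi-NMP and Cdx1 60.5% in T cells without Sox2 of ES-NMP, while Epi-CE-T stays at or below 2.51% throughout.

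Among the marker classes of Epi-NMP, Cdx2 was frequent in cells with neural genes and scarce in cells with somite genes. The 45 cells with at least 3 neural markers held it in 91.1% (78.8 to 97.5), at a mean of 4.11 UMIs and with 8.38 UMIs of Hox groups 5 to 9. The 44 cells with at least 3 somite markers held it in 11.4%, as given above, at a mean of 0.205 UMIs and with 1.11 trunk Hox UMIs. Presomitic-list cells lay between, at 70.5% of 234 (64.2 to 76.3), and 30.1% of the 83 cells with Meox1, a somite gene, held Cdx2. In ES-NMP, presomitic-list cells held Cdx2 in 84.1% of 270 and Cdx1 in 71.5%. Neural-list cells of ES-NMP held Cdx2 in 40.4% of 52. Such classes are ranges of marker detection, can overlap and are not cell types. Whether their cells had left an NMP state was not tested. The neural list includes Ncam1, itself among the 8 genes most alike to Cdx2 in Epi-NMP.

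Trophectoderm and gut, the other tissues where Cdx2 acts, were hardly represented. At least 3 trophoblast markers were found in 3 ES-NMP cells and in 0 cells of the 3 other libraries. At least 3 intestinal markers were found in 0 cells of any library, and at least 3 endoderm markers in 1 cell of Epi-CE and 1 of Epi-NMP. Single markers were present, such as Tfap2c at 21.4 CPM in ES-NMP and Foxa1 at 25.3 CPM in Epi-CE-T.

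The few Cdx2 molecules of Epi-CE-T were concentrated. Before thinning, 14 cells with 3 or more Cdx2 UMIs held 166 of 210 Cdx2 UMIs, or 79.0%. Of these 14, 10 held T, 12 Nkx1-2, 13 Sox2, 8 Cdx1 and 9 a UMI of Hox groups 5 to 9, and none had a barcode found in another library. Their median was 33290.5 UMIs per cell, against 19018.5 in the cells without Cdx2. Among 2058 cells without Cdx2, 1709 held T, 190 Nkx1-2, 843 Sox2 and 21 Cdx1, and 8.31% held a trunk Hox UMI. T was thus no more frequent in the 14 cells than in those without Cdx2. The 14 cells were singled out after the values had been seen.

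Signals around the family were followed with 42 genes of 5 lists, all measured. Epi-CE had 9 at least 1.5-fold higher and 8 lower than ES-NMP, near the background of 21.1% and 16.2%, with a median log2 ratio of -0.17 against 0.03 over all genes. The extremes were T at 4.21-fold higher, Rdh10 at 3.75 and Dusp6 at 2.92. Crabp1, a retinoic acid binding protein, was 15.2-fold lower, Fgf17 5.21-fold and Meis1 5.06-fold. Epi-NMP had 18 higher and 9 lower than ES-NMP (background 16.0% and 18.4%). In it the retinoic acid list had 5 of 8 higher, with Dhrs3 at 12.9-fold and the retinoic acid hydroxylase Cyp26a1 at 6.45-fold, beside Gdf11, a trunk-to-tail signal, at 5.50-fold. Pou5f1 was 46.8-fold lower, Wnt8a 18.2-fold and Crabp1 4.88-fold.

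Between the epiblast-derived libraries, Epi-NMP had 15 of the 42 genes higher and 7 lower than Epi-CE (background 14.9% and 22.7%). Gdf11 was 12.9-fold higher, Dhrs3 9.17-fold and Wnt5a 4.73-fold, and Pou5f1 was 43.5-fold lower, Wnt8a 19.3-fold and Wnt3 5.03-fold. Epi-CE-T had 7 higher and 23 lower than Epi-CE (background 18.1% and 13.1%), with a median log2 ratio of -0.86 against 0.04 over all genes. The WNT list had 8 of 13 lower and the FGF list 5 of 8. Fgf4 was at least 55.7-fold lower, Wnt3a 31.7-fold and Fgf8 20.4-fold. Crabp1 was 5.66-fold higher, Dhrs3 2.70-fold and Meis2 2.11-fold.

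Within libraries, some lists leaned one way with Cdx2 and others were mixed. The shares of all genes at least 1.5-fold higher and lower in cells with Cdx2 were 7.19% and 9.09% in ES-NMP. They were 2.20% and 3.53% in Epi-CE, and 5.36% and 7.25% in Epi-NMP. The WNT list had 6 of 13 measured genes at least 1.5-fold higher and 1 lower in ES-NMP. It had 4 and 1 of 13 in Epi-CE, and 3 and 3 of 10 in Epi-NMP. In the same order, the FGF list had 3 and 0 of 8, 4 and 0 of 8, and 3 and 1 of 7. The trunk and tail regulators had 5 and 0 of 8, 2 and 0 of 7, and 4 and 0 of 8. None of them was thus at least 1.5-fold lower. The retinoic acid list had 3 and 1 of 7, 2 and 3 of 7, and 4 and 2 of 8. The Meis and Pbx list had 1 and 1 of 5, 0 and 0 of 4, and 0 and 1 of 5. In ES-NMP, Wnt3a was 10.4-fold higher in cells with Cdx2 (6.99 to 16.3), Fgf17 6.01-fold and Nkx1-2 3.90-fold. Crabp1 was 4.52-fold lower there, Tcf7l1, a WNT repressor, 3.22-fold and Pou5f1, of the trunk and tail list, 1.496-fold. In Epi-CE, Fgf8 was 2.97-fold higher (2.71 to 3.26), Nkx1-2 2.15-fold and Wnt8a 2.07-fold, and Cyp26a1 was 3.21-fold lower, Wnt3 1.78-fold and Sp5 1.28-fold. In Epi-NMP, Fgf8 was 8.66-fold higher (6.03 to 12.9), Rarg 4.85-fold and Sp8 3.95-fold. Aldh1a2, which makes retinoic acid in somites, was 12.6-fold lower there (8.38 to 19.7), Lef1 2.16-fold and Axin2 1.67-fold. Aldh1a2 went the other way with Cdx1 in Epi-NMP, 3.90-fold higher (2.68 to 5.54), and T was 2.00-fold lower (1.61 to 2.53).

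Across cells of a library, likeness to Cdx2 was measured by Pearson's r of log(1 + thinned count). In ES-NMP (7764 genes ranked over 3116 cells) the most alike were Hoxaas3 at 0.55, Nkx1-2 at 0.52, Grsf1 at 0.51, Hoxb8 at 0.50, Hoxb9 at 0.49, Slc2a1 at 0.44, Ccnd2 at 0.43 and Hoxb2 at 0.40. The lowest were Dppa5a at -0.50, Mt1 at -0.49, Mt2 at -0.48 and Tdh at -0.45, and Dppa5a and Tdh are naive markers. In Epi-CE they were Nkx1-2 and Fgf8 at 0.36, Grsf1 at 0.33, Lhpp at 0.26, and Cdx1 and Ptk7 at 0.24. In Epi-NMP they were Hoxaas3 at 0.69, Hoxb9 at 0.51, Slc2a3 and Hoxb5os at 0.47, Slc2a1 and Ncam1 at 0.45, Hoxb8 at 0.44 and Hoxc9 at 0.40, and the lowest Tmsb4x at -0.52, Phlda1 at -0.49, Lmo2 at -0.46 and Colec12 at -0.38. Hoxaas3 and Hoxb5os are antisense to Hox genes, and the use of strand in counting is not given in the sources used here, so their reads and those of their partners cannot be told apart.

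For Cdx1 the likeness in ES-NMP was led by T at 0.40, Grsf1 at 0.37, Fst and Fgf8 at 0.36, Rspo3 at 0.35 and Cdx2 at 0.34, with Hes7 at 0.30 and Nkx1-2 at 0.28. In Epi-CE it was led by Cdx2 at 0.24 and Grsf1 at 0.22. In Epi-NMP no ranked gene was above Lims1 at 0.14, and Cdx2 was not among the first 8. For Cdx4 in ES-NMP the highest were Hoxaas3 at 0.16 and Hoxb9 and Hoxb8 at 0.15. These values describe cells that share a library and a depth, and the ones for Cdx1 in Epi-NMP and for Cdx4 rest on 67 cells each.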

How the data were processed

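The authors deposited a matrix of raw UMI counts, 1 row for each gene and 1 column for each barcode. Cell Ranger 1.3.1, Seurat 2.0 and build mm10 are named in the submitters' processing notes; alignment, annotation, strand and multi-mapping settings are not given in the sources used here. Groups were read from the labels' titles, and a deposited cell table gave each barcode's library and a TRUE or FALSE mark whose meaning is not given in the sources used here. TRUE barcodes were used. No doublet caller was run; leaving out the lowest and highest 10 percent of cells by UMIs was an alternative.

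Intervals are exact at 95%: Poisson for levels, conditional binomial for ratios and Clopper-Pearson for shares. Where a share is 0, the limit given is 3 counts of the total. Genes needed 50 UMIs to be measured (200 for named pathway genes). Cells were thinned to 8000 UMIs without replacement. The ratios, intervals and thinning were tested on simulated data. Python 3.11.15, numpy 2.4.6, scipy 1.17.1, edgeR 4.0.16 and DESeq2 1.42.0 were used, the last 2 for alternative scaling only. Totals per library, 22261452 to 71563029 UMIs, set the precision.

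Members, lists and rules were chosen with earlier results of these data known. Named genes were, per library, the 8 Hox genes with the largest and the 3 with the lowest ratio by Cdx2, the 8 highest and 4 lowest in likeness among genes detected in at least 5% of cells, and the 3 highest and 3 lowest pathway genes per comparison. Some are not reported here. Gene positions are from GENCODE M21, promoters from RefSeq. Pooled UMIs underlie the intervals of levels, ratios and mean UMIs, which leave out the spread between cells. Cells underlie those of shares, and cultures underlie none.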

Additional observations from a re-analysis of the deposited data

Results flagged for a closer look

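Barcodes marked FALSE were used in none of the comparisons, and in Epi-NMP they make up 57.7% of the library (1513 barcodes, median 4720 UMIs). Cdx2 was at 259 CPM in them (248 to 271), against 336 CPM in the TRUE barcodes and far above the floor that 0 counts would give. Their part in the log2 ratios between libraries is given by the alternative that uses all barcodes. For the results from thinned cells, that alternative added only FALSE barcodes with enough UMIs to be thinned. The median of 4720 UMIs is below the thinning depth, so most FALSE barcodes of Epi-NMP stayed out there. Their part in the shares of cells and in the Hox results was not tested.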

How the results depend on the processing

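Of 300 recomputed values, 197 stayed inside the counting interval of the reported value, 102 moved outside it (counts of genes: by over 1.5 times) and 1 log2 ratio changed sign: Cdx2 in Epi-NMP over ES-NMP, at a log2 ratio of -0.0078 without naive-list cells. That log2 ratio was 0.38 with all barcodes, 0.42 with TMM factors, 0.42 with DESeq2 size factors, 0.40 as a mean of per-cell CPM and 0.38 without the lowest and highest 10 percent of cells by UMIs (the middle cells). Without naive-list cells, Epi-CE over ES-NMP was -1.22 for Cdx1 and -1.47 for Cdx2, and Epi-NMP over ES-NMP was -3.17 for Cdx1. For Cdx2 in Epi-CE over ES-NMP, DESeq2 size factors gave -1.05 and per-cell CPM -0.92. For Cdx2 in Epi-NMP over Epi-CE, all barcodes gave 1.39, per-cell CPM 1.32 and the middle cells 1.35. For Epi-CE-T over Epi-CE, per-cell CPM gave -5.69 (Cdx1) and -5.26 (Cdx2), and the middle cells -5.45 (Cdx2). The cause was not tested.

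The log2 ratio of Hox groups 5 to 9 by Cdx2 depended on depth, on the random draw and on the cells kept. In ES-NMP it was 2.73 at 4000 UMIs, 4.46 unthinned, 4.09 with at least 2 Cdx2 UMIs, 3.66 with a second seed, 3.10 without naive-list cells and 4.24 in cells with T. In Epi-CE it was 1.57 unthinned and 1.51 with a second seed, and in Epi-NMP 1.73 at 4000 UMIs and 3.43 unthinned. Cdx1 and Cdx2 in the same cells over the product were 1.53, 1.26 and 1.71 in ES-NMP at 4000 UMIs, unthinned and with at least 2 UMIs, and 1.80, 1.33 and 1.92 in Epi-CE. In Epi-NMP at least 2 UMIs gave 0.72, below 1 and so opposite in direction to the reported 1.12; it is counted among the 102. With no UMI minimum, genes at least 1.5-fold higher or lower numbered 5230 and 4311 for Epi-CE over ES-NMP (2864 and 2191 with it), 5614 and 3592 for Epi-NMP over ES-NMP (2078 and 2386), 5067 for higher in Epi-NMP over Epi-CE (1887), and 4713 and 3699 for Epi-CE-T over Epi-CE (2377 and 1723). Leaving out barcodes shared between libraries was chosen after seeing the data. No paired analysis was possible because each group has 1 library, and no replicate could be left out. Few UMIs limit the precision of Cdx4 in Epi-NMP (1 UMI) and of Hox groups 5 to 9 in Epi-CE cells without Cdx2 (64 UMIs).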
